A study of Mus musculus with 79 samples.

Results

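The 8 genes described here, Dct, Gpnmb, Tyr, Tyrp1, Pmel, Mlana, Slc45a2 and Mitf, are genes of melanocytes and of the melanosome, the organelle in which pigment is made. They were looked up by symbol in the hypothalamus expression table, and all 8 were found among its 25965 genes. The list was chosen by the difference in RPKM between the genotypes, which was already known when it was drawn up, and by the role of the genes in pigment cells. Read numbers and fold differences of its members are therefore a description and carry no test. The histone marks at these genes were not used for the choice, and are compared with tests fitted over all promoters or all genes.

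RNA-seq was performed on hypothalamus of mice aged about 14 weeks, 5 of them +/+ and 4 Δ/D329A at Dnmt3a. ChIP-seq for H3K4me3, H3K27me3 and H3K36me3, with an input library for each animal, was performed on hypothalamus of the same age from 3 +/+ and 3 Δ/D329A animals. The Δ/D329A mice carried the point mutation D329A in the PWWP domain of DNMT3A on the paternal allele and a deletion (Δ) on the maternal allele, made by Cre recombinase under the oocyte promoter of Zp3, so that every tissue of the animal has this genotype. The +/+ mice carried wild-type alleles only. The study states that its replicates are separate animals, and that each ChIP-seq animal gave all marks and the input, so that p-values measure the spread between animals.

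The RNA-seq libraries held 5496086 to 9729868 reads on genes in +/+ and 3837453 to 6524016 in Δ/D329A, and the shallowest was Δ/D329A replicate 2. Dnmt3a itself was at 3.28 to 4.31 RPKM in +/+ and 2.84 to 3.30 RPKM in Δ/D329A, which does not check the point mutation or the deleted exon. All 9 RNA-seq libraries held Xist, at 13.9 to 24.0 RPKM, and at most 1 read on Y-linked genes, whilst the mean input coverage of chromosome X was 0.415 to 0.429 of that of the autosomes. The study calls the RNA-seq hypothalamus female in a supplementary legend, although a legend showing both kinds of data names male hypothalamus. It describes the hypothalamus used for ChIP-seq as male. By these values, transcripts and marks came from different animals, and reads set beside marks below are of different sexes. A ChIP-seq read was worth 0.0331 to 0.0789 RPM, the unit of the ChIP-seq table, in which reads are scaled to the mapped total of the library. In H3K4me3 the library of Δ/D329A replicate 1 stood apart, with a median of 5 reads per tile of background against 1 to 3 in the other 5.

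Melanocytes descend from the neural crest and make melanin from tyrosine inside the melanosome. Tyrosinase starts this synthesis, and its relatives TYRP1 and DCT act on later intermediates. The transcription factor MITF switches on these enzymes in melanocytes, and binds E-box sequences such as the M-box found before the pigment enzyme genes. Melanocytes also reside in the meninges that cover the brain, and the retinal pigment epithelium shares much of their programme.

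The stretches of 250 bases before the transcription start are shown for the 3 members of the tyrosinase family, because of these Dct had many more reads in Δ/D329A and the others did not, and for Gpnmb, the other member that was higher. They were taken from RefSeq on GRCm38.p6, which held an entry for 5 of the 8 members. Pmel, Mlana and Slc45a2 had none. Capitals mark CATGTG on either strand (CACATG on the other), written as TCATGTG or CACATGA where the preceding T makes it the core of the M-box, which contains the E-box.
Dct (chr14:118052247-118052496, minus strand): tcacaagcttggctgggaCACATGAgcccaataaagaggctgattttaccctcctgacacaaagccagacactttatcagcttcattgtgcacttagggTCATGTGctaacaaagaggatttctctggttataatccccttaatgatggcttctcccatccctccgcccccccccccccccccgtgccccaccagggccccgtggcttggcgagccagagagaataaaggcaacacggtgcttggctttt
Tyr (chr7:87493513-87493762, minus strand): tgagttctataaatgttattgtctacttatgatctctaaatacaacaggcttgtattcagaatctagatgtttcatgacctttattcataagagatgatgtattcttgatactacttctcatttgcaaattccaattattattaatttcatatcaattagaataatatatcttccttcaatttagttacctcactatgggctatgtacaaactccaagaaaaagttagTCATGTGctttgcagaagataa
Tyrp1 (chr4:80833963-80834212, plus strand): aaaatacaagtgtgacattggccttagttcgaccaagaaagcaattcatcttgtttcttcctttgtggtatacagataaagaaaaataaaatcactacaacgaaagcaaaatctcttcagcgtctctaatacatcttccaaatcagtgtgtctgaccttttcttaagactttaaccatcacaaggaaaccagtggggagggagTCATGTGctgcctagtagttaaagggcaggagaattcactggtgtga
Gpnmb (chr6:49036268-49036517, plus strand): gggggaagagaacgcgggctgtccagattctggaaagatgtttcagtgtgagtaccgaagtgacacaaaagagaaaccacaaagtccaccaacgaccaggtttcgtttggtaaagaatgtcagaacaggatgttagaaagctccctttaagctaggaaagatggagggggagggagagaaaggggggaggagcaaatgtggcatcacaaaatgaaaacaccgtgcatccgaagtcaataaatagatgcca

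TCATGTG was present before all 3 tyrosinase family genes, counted in bases from the start. It lay from -151 to -145 in Dct, with a further copy on the other strand from -232 to -226. In Tyr it lay from -22 to -16 and in Tyrp1 from -47 to -41. Of all 32841 promoters searched, 3.25% held TCATGTG and 12.3% held CATGTG in this window. The Gpnmb window held neither, and neither did those of the 3 annotated starts of Mitf. CACGTG, which 6.02% of promoters held, was in none of these 7 windows. The windows also differed in CpG sites, the target of DNMT3A, with 0 in Tyr, 3 in Tyrp1, 5 in Dct and 7 in Gpnmb, against a median of 6 over all promoters.

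Dct, which encodes dopachrome tautomerase, had at most 4 reads in any +/+ library and at least 46 in every Δ/D329A library. It had 2, 3, 0, 3 and 4 reads in the +/+ libraries and 46, 47, 61 and 73 in the Δ/D329A libraries, over 2261 bp of exons on chromosome 14 (118012792 to 118052246). This corresponds to 0.0481, 0.0849, 0, 0.0856 and 0.105 RPKM in +/+ and 1.39, 1.98, 2.03 and 2.90 RPKM in Δ/D329A. The genotypes did not overlap, with the lowest Δ/D329A library at 1.39 RPKM and the highest +/+ library at 0.105 RPKM. With reads summed over each genotype and divided by depth, Dct was 30.4 times higher in Δ/D329A (95% interval of counting error 17.1 to 59.7), and on the log2 RPKM scale the mean went from -3.96 ± 0.75 (SD, n = 5) to 1.004 ± 0.43 (SD, n = 4), a difference of 4.97. A library without a read stands at 0.9 reads on that scale, so the log2 difference of a gene this low depends on that floor, and it was 3.65 with 0.1 RPKM added to every value.

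Tyr, which encodes tyrosinase and lies on chromosome 7 (87427405 to 87493411), was not detectable at this depth in Δ/D329A. A single read was found in 1 of the 5 +/+ libraries, and none in the other +/+ libraries or in any of the 4 Δ/D329A libraries. The absence of reads over the 4 Δ/D329A libraries allows a level of up to 0.0183 RPKM (3 reads over the group), beside 2.03 RPKM for Dct in the same pooled libraries. Tyrp1, the third member of the family, lies on chromosome 4 (80834123 to 80851719) and had 3, 6, 0, 3 and 0 reads in +/+ and 2, 1, 2 and 1 in Δ/D329A. The genotypes overlapped, and the summed reads gave a ratio of 0.804 with an interval from 0.247 to 2.31. Of the 3 related enzymes whose starts are all preceded by TCATGTG, Dct alone had more than 6 reads in any library.

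Gpnmb encodes a transmembrane glycoprotein of melanosomes, which is also made by macrophages and microglia that have taken up lipid or debris. It lies on chromosome 6 (49036518 to 49058182) and had 8, 7, 2, 11 and 9 reads in +/+ and 122, 46, 113 and 99 in Δ/D329A. In RPKM these were 0.115, 0.118, 0.0394, 0.187 and 0.141 in +/+, and 2.19, 1.15, 2.24 and 2.34 in Δ/D329A. All Δ/D329A libraries were above all +/+ libraries, and replicate 2 of Δ/D329A was lower than the other 3 of its genotype. The summed reads were 16.5 times higher in Δ/D329A (interval 11.8 to 23.8), and the log2 mean went from -3.23 ± 0.85 (SD, n = 5) to 0.93 ± 0.49 (SD, n = 4), a difference of 4.16, or 3.23 with 0.1 RPKM added. Pooled over the libraries, Gpnmb at 2.02 RPKM and Dct at 2.03 RPKM were at the same level in Δ/D329A, whereas Gpnmb had been the higher at 0.122 against 0.0665 RPKM in +/+.

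The structural and transport members had few or no reads in both genotypes. Pmel, which forms the fibrils on which melanin is laid down, had 4, 4, 8, 3 and 5 reads in +/+ and 2, 0, 5 and 0 in Δ/D329A. These overlapped, and the ratio of summed reads was 0.469 with an interval from 0.171 to 1.12. Mlana, a melanosome membrane protein used as a marker of melanocytic cells, had no read in any of the 9 libraries, which allows up to 0.0604 RPKM in +/+ and 0.0971 RPKM in Δ/D329A. Slc45a2, a melanosome membrane transporter, had 0, 0, 0, 1 and 2 reads in +/+ and 3, 0, 0 and 0 in Δ/D329A.

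**Figure D1:**
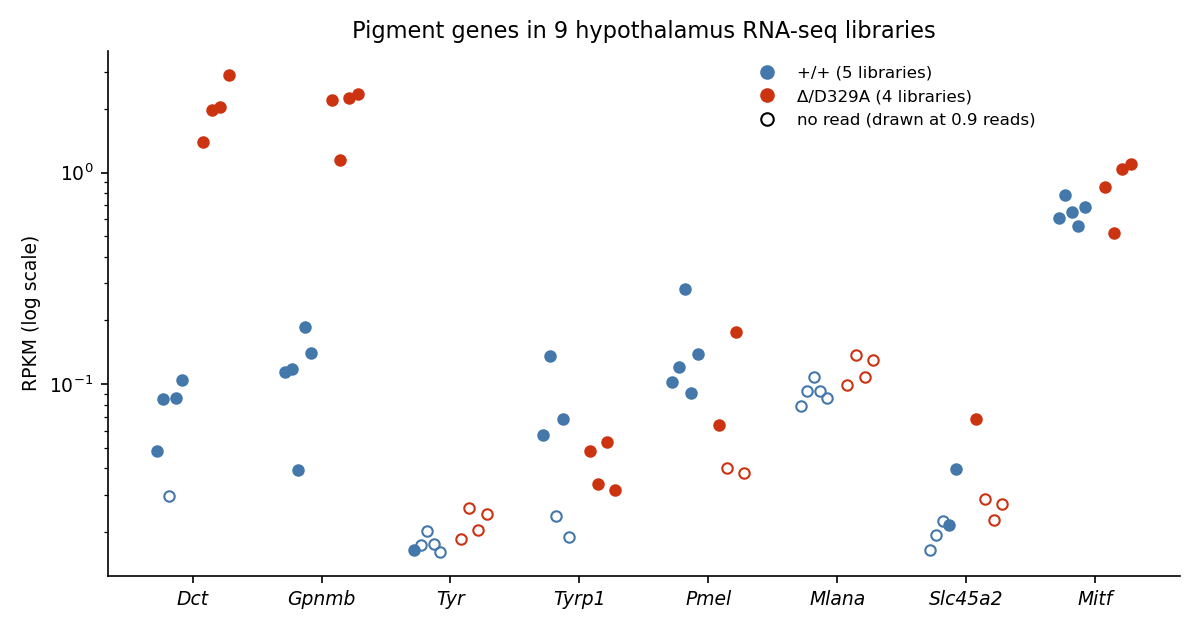
Level of the 8 pigment genes in each hypothalamus RNA-seq library, in RPKM on a log axis, with 5 +/+ libraries in blue and 4 Δ/D329A libraries in red. Open circles are libraries without a read, drawn at 0.9 reads, so their height reflects exon length and depth only. Dct and Gpnmb in Δ/D329A lie at 1.15 to 2.90 RPKM, above all +/+ libraries, whilst Tyr, Tyrp1, Pmel, Mlana and Slc45a2 stay at or below 0.281 RPKM in both genotypes.

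Mitf, which encodes the factor that directs the melanocyte programme but is also transcribed from other promoters in other cells, was expressed in both genotypes. Its reads were 70, 76, 54, 54 and 72 in +/+ and 78, 34, 86 and 76 in Δ/D329A, over 6215 bp of exons on chromosome 6 (97807058 to 98021349). The RPKM values were 0.613, 0.782, 0.649, 0.560 and 0.687 in +/+, and 0.857, 0.520, 1.04 and 1.10 in Δ/D329A. Of the Δ/D329A libraries 3 were above all +/+ libraries, whilst replicate 2 was below all of them. The log2 difference was 0.37 with all libraries. It was 0.60 without Δ/D329A replicate 2, the library that was also lowest for Gpnmb, and 0.27 and 0.24 without replicates 3 and 4 of that genotype.

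Of the 8 members, 5 passed the filter of 0.1 RPKM in at least 4 libraries, namely Dct, Gpnmb, Pmel, Mitf and Mlana. Mlana passed solely because 0.9 reads over its 623 bp of exons exceeds 0.1 RPKM in 4 libraries. The fit with limma over 17839 genes called 19 genes, or 0.107%, at an adjusted p under 0.01, of which 15 were higher and 4 lower in Δ/D329A. Dct and Gpnmb were among them, and were also called by edgeR (0.554% of 13891 genes) and DESeq2 (1.52% of 16427 genes) on whole reads. As this contrast was known when the list was made, nothing is read from these 2 calls. In +/+ Dct and Gpnmb made up 11.8% of the 415 reads on all members, and in Δ/D329A 67.7% of 897 reads.

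Other markers of melanocytes were measured beside Dct and Gpnmb, in a list also made with results of these data known. Of 10 markers, 3 passed the filter, and limma, edgeR and DESeq2 called none of the 10, with none of the 3 at an unadjusted p under 0.05 in limma. Of all 17839 genes tested, 1360 had an unadjusted p under 0.05 in limma and 10638 were higher in Δ/D329A. The counts of this and the following lists are to be read beside these. Kit, the receptor for the melanocyte survival signal, differed by -0.45 on the log2 scale, which was the lowest of the list. Its adjusted p was 0.355 in limma (SE 0.22), 0.0616 in edgeR and 0.0230 in DESeq2. Sox10, a neural crest factor that is also expressed by oligodendrocytes, differed by 0.08 (SE 0.23, adjusted p = 0.951), and Ednrb, the endothelin receptor, by -0.20 (SE 0.17, adjusted p = 0.734). The remaining markers had few reads in both genotypes, such as Oca2, a melanosome channel, with 5 reads summed over +/+ and 9 over Δ/D329A, Trpm1 with 16 and 17, and Slc24a5 with 7 and 6. Reads summed over a genotype are given here and in the following lists without division by depth, and +/+ had more libraries and more reads. Pax3, which lies upstream of Mitf in melanocyte precursors, had 2 reads in +/+ and 9 in Δ/D329A. Tspan10 had no read in any library, Gpr143 had 3 reads in Δ/D329A and none in +/+, and the receptor gene Mc1r had 2 and 1. The summed level of the 10 markers was 17.9 to 26.1 RPKM in +/+ and 14.4 to 22.5 RPKM in Δ/D329A.

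Genes of melanosome assembly, transport and acidity, most of which serve lysosome-related organelles in many cells, were also tested. Of 27 listed genes 24 were in the table and 22 passed the filter, and none was called by limma, edgeR or DESeq2, with 1 at an unadjusted p under 0.05 in limma. Of the 22, 11 were higher in Δ/D329A, beside 10638 of all 17839 genes tested. The median log2 difference was 0.01, against 0.06 over all genes tested. The largest value was 0.34 in Bloc1s1, a subunit of the complex that sorts cargo to melanosomes, and the smallest -1.20 in Rab38, a small GTPase that delivers tyrosinase to the melanosome, which had 23 reads summed over +/+ and 5 over Δ/D329A. The median of 14 lysosomal genes was likewise 0.01, with 7 higher, values from -0.46 in Lipa to 0.31 in Hexa, 0 called by any of the 3 tools and 0 at an unadjusted p under 0.05. The MITF relatives Tfeb and Tfe3 differed by 0.31 and 0.02, and Tfec had 1 read in all libraries.

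Signals that act on melanocytes were measured as well. Of 9 listed genes 8 were in the table and 6 passed the filter, and again 0 were called by limma, edgeR or DESeq2, with 2 at an unadjusted p under 0.05 in limma. Kitl, the ligand of KIT, had the largest log2 difference of those tested at 0.60, and Pomc, whose peptides stimulate melanocytes and which is itself a hypothalamic gene, had the smallest at -1.06, with 1306 reads summed over +/+ and 379 over Δ/D329A.

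Lists of other cells that the tissue could hold are given beside these values, since Gpnmb in particular is not restricted to melanocytes. In microglia 8 of 9 markers were higher in Δ/D329A, beside 10638 of all 17839 genes tested, with a median log2 difference of 0.49. The values ran from -0.22 in P2ry12, a receptor of resting microglia, to 0.997 in Tyrobp, a signalling adaptor. In the list of activated microglia 8 of 9 genes were higher with a median of 0.88, and Itgax, which encodes the integrin CD11c, had the largest difference at 2.13 (SE 0.30, adjusted p = 0.0148 in limma), from 15 reads summed over +/+ to 40 over Δ/D329A. Neither list had a gene called by limma, edgeR or DESeq2, although 2 and 5 genes respectively had an unadjusted p under 0.05 in limma. Over all 17839 genes tested, 1360 did. The summed level of the activated list was 12.2 to 19.1 RPKM in +/+ and 14.5 to 22.3 RPKM in Δ/D329A, and that of the microglial list 28.4 to 64.2 and 39.0 to 69.3 RPKM, so that both overlapped between the genotypes. The part of these cells in the difference of Gpnmb was not tested, and in whole tissue more cells of a type and more RNA per cell cannot be told apart.

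Markers of the meninges differed by a median of 0.22, with 6 of 10 higher (10638 of 17839 over all genes tested) and values from -0.76 in Lum to 1.07 in Slc47a1. Their summed level was 9.36 to 30.2 RPKM in +/+ and 13.5 to 33.0 RPKM in Δ/D329A, and no gene was called by the 3 tools or had an unadjusted p under 0.05 in limma. Of 6 markers of the retinal pigment epithelium 3 passed the filter, with values from 0.13 in Rdh5 to 0.81 in Best1, none called by the 3 tools and 2 at an unadjusted p under 0.05 in limma. The most specific of them, Rpe65, had 2 reads summed over +/+ and 3 over Δ/D329A. Keratinocyte and Schwann cell markers, which would accompany skin or nerve, had 0 calls by the 3 tools and 0 genes at an unadjusted p under 0.05. In the former Krt5 had 0 reads in +/+ and 1 in Δ/D329A, with values from -0.67 in Krt10 to 0.08 in Krt1 among the 3 tested, and in the latter Egr2, the 1 gene tested, differed by 0.26.

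Of 8 chondrocyte genes, 2 were called higher in Δ/D329A by limma, edgeR and DESeq2. Over all genes, these tools called 15 of 17839, 40 of 13891 and 132 of 16427 higher, respectively. These were Matn1, which encodes a cartilage matrix protein (log2 difference 4.46, SE 0.46, adjusted p = 0.00173 in limma), and Lect1 (3.23, SE 0.29, adjusted p = 0.000607 in limma). The other 4 tested, Acan, Col2a1, Col9a1 and Col11a1, differed by -0.44 to 0.09. The chondrocyte list too was made with results of these data known. These calls, and their distance from the other genes of the list, are therefore a description and nothing is read from them. In the choroid plexus list Ttr (1.82) was called higher by DESeq2 (adjusted p = 0.00143), but not by limma (0.187) or edgeR (0.0212), with Kl at -0.43 the smallest of 5 tested. The hypothalamic neuropeptides, which check the tissue, summed to 407.5 to 844.8 RPKM in +/+ and 470.4 to 681.3 RPKM in Δ/D329A, and of these Cartpt (-0.81) was called lower by edgeR (adjusted p = 0.00246) and DESeq2 but not by limma (adjusted p = 0.355), whilst Avp had the largest difference at 0.33.

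**Figure D2:**
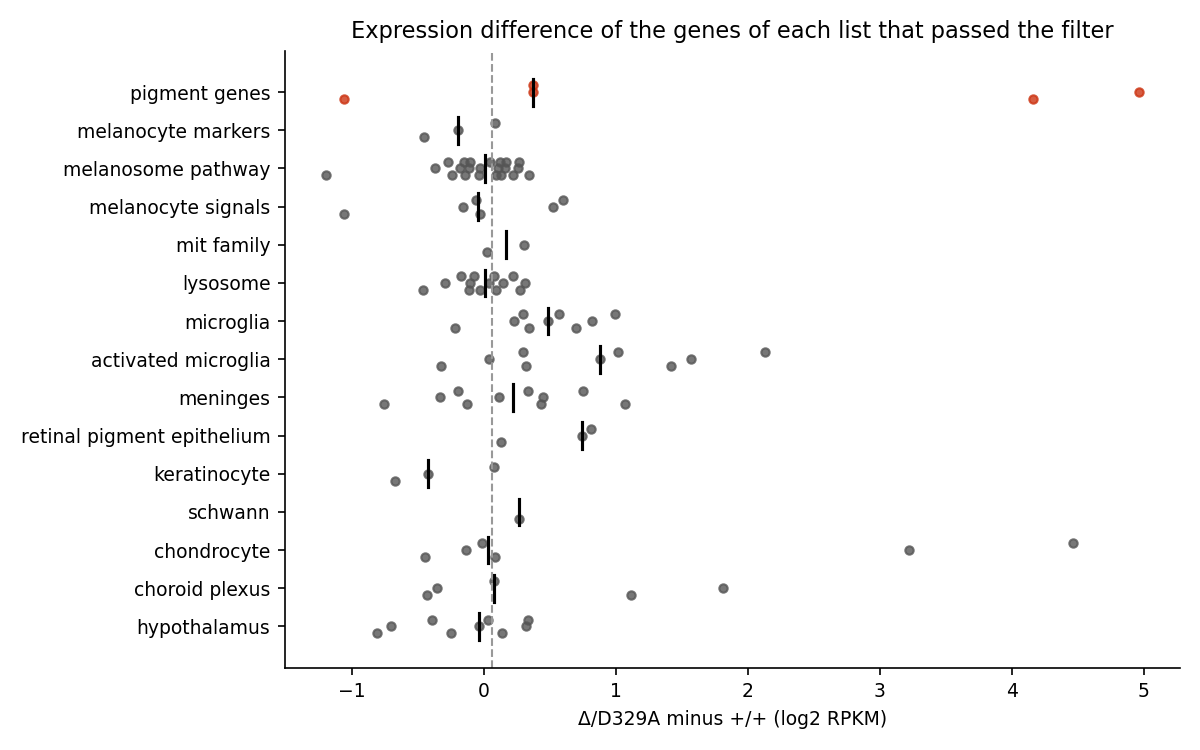
Difference in expression between Δ/D329A and +/+ (log2 RPKM) for every gene of each list that passed the filter, with 1 point per gene. Black bars are list medians and the dashed line is the median of all 17839 genes tested, 0.06. Dct at 4.97 and Gpnmb at 4.16 lie apart from the remaining members, melanocyte markers and melanosome genes, whose values run from -1.20 to 0.37. A pair of chondrocyte genes lies at 4.46 and 3.23. The pigment and chondrocyte lists were both made with results of these data known, so their outlying genes are a description.

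The genes next to the members in the genome were looked at to see whether a whole neighbourhood moved. None of the nearest genes on either side was called by limma, edgeR or DESeq2 at an adjusted p under 0.01. Over all genes these tools called 0.107%, 0.554% and 1.52%, respectively. Beside Dct, Gpc6 at a distance of 33263 bp differed by 0.21 and Tgds at 59665 bp by -0.50 on the log2 scale, with overlapping genotypes. Beside Gpnmb, Svs1 had 1 read in all libraries, and 2410003K15Rik at 15613 bp differed by -0.04. Beside Tyr, Nox4 differed by -0.46 and Grm5 by 0.02. Dgka, which overlaps Pmel, differed by -0.63 (adjusted p = 0.355 in limma, 0.0501 in edgeR and 0.0250 in DESeq2). The study calls its library kit strand-specific in a figure legend, but whether strand was used in counting is not given in the sources used here, so the values of Pmel and Dgka, which share a stretch, are uncertain.

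Over the 9 libraries, the log2 levels of Dct were most like those of Gpnmb, with a Pearson r of 0.979. The next were Pou4f1 (0.975), Lhx4 (0.973), Wt1 (0.969) and Hoxa6 (0.963). For Gpnmb the nearest after Dct were Pou4f1 (0.960), Wt1 (0.959), Edaradd (0.953) and Hoxa7 (0.951). All are developmental regulators or signalling genes that were higher in Δ/D329A, by 1.73 to 5.72 on the log2 scale. These coefficients are descriptions, since the 9 points fall into 2 groups by genotype and share the same libraries and depths. Melanocyte genes other than Gpnmb were not among the 5 genes nearest to Dct. A gene without a large difference between the genotypes could hardly rank there, so nothing is read from this.

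Whether the member promoters carried the marks was asked by comparing each mark with the input of the same animal, over 25952 promoters taken from 1500 bp before to 500 bp after the start. H3K4me3, the mark of active or poised promoters, was at least 1 log2 unit above input (adjusted p under 0.05 in limma) at 55.9% of promoters, and among the members at Mitf (log2 ratio 4.53, SE 0.12) and Pmel (3.55, SE 0.11). The start of Cdk2 lies 1207 bp before that of Pmel on the other strand, so that the same tiles hold both. At Dct (0.51), Gpnmb (0.46) and Slc45a2 (0.53) the H3K4me3 signal was above input by less than that limit, and at Tyr (-1.79), Tyrp1 (-1.58) and Mlana (-2.10) it was below input.

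H3K27me3, the mark laid down by Polycomb repressive complex 2 over silent developmental genes, was enriched by the same criterion at 11.9% of promoters, and among the members at Gpnmb (1.37, SE 0.11), Dct (1.09, SE 0.13) and Pmel (1.02, SE 0.13). Dct and Gpnmb were both in the marked class, and in the +/+ animals their means lay above 89.8% and 91.5% of all promoters. The calls of Dct and Pmel lay close to the limit of 1 on the log2 scale, and Dct was at 0.80 in +/+ animals alone and 0.86 with 0.5 RPM added. H3K36me3, the mark to which the PWWP domain binds, was enriched at 1.52% of promoters and at none of the members, whose log2 ratios ran from -1.81 to -0.85.

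Between the genotypes, none of the 8 promoters was called for any mark at an adjusted p under 0.05 in limma. Over all promoters 0.947% were called for H3K4me3, 1.01% for H3K27me3 and 0.0522% for H3K36me3, and the 0 of 8 members are to be read beside these shares. Before adjustment 1, 1 and 2 of the 8 had a p under 0.05, respectively, beside 4.21%, 9.71% and 7.32% of all promoters tested. The animals of the genotypes did not overlap in 1 of 8 promoters for H3K4me3 (6.23% of all promoters), in 2 for H3K27me3 (14%) and in 1 for H3K36me3 (12%).

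At the Gpnmb promoter H3K4me3 was 0.854, 0.998 and 1.12 RPM in the +/+ animals and 2.51, 1.14 and 1.90 RPM in the Δ/D329A animals. All Δ/D329A animals were above all +/+ animals, but replicate 2 by little. The log2 difference was 0.78 (SE 0.36, adjusted p = 0.90 in limma), and was 0.54 without Δ/D329A replicate 1, the library of high background, and 1.08 without replicate 2. H3K27me3 at the same promoter was 2.11, 2.37 and 2.11 RPM in +/+ and 2.89, 2.81 and 3.35 RPM in Δ/D329A, also without overlap, with a difference of 0.44 (SE 0.18, adjusted p = 0.358 in limma). For both marks the animals of the genotype with more Gpnmb reads were higher, and neither difference passed the test.

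At the Dct promoter the marks of the genotypes overlapped. H3K4me3 was 1.36, 1.70 and 1.41 RPM in +/+ and 1.51, 1.10 and 1.36 RPM in Δ/D329A, a difference of -0.16 (SE 0.35, adjusted p = 1 in limma). This value followed the scaling, since setting the library medians equal moved all H3K4me3 promoters by 0.17 and brought Dct to 0.01, and the ratio to input gave 0.18. H3K27me3 was 2.17, 1.92 and 1.81 RPM in +/+ and 2.08, 2.23 and 2.77 RPM in Δ/D329A, a difference of 0.25 (SE 0.19, adjusted p = 0.744 in limma). As ratio to input it was 0.59 (adjusted p = 0.629 in limma), and it was 0.13 without Δ/D329A replicate 3. The input itself did not overlap at this promoter, with 1.05, 1.23 and 0.984 RPM in +/+ and 0.745, 0.868 and 0.899 RPM in Δ/D329A. The mean of H3K27me3 at Dct was thus the higher one in the genotype in which the gene had more reads, and the size of the difference depended on the input. H3K36me3 differed by 0.64 (SE 0.32, adjusted p = 0.674 in limma) from a mean of 0.259 RPM, by 0.99 as ratio to input and by 0.34 with 0.5 RPM added, and equal library medians shifted that mark by -0.11.

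The remaining promoters held little that separated the genotypes. Tyrp1 was the other promoter without overlap for H3K27me3, at 0.787, 0.751 and 0.843 RPM in +/+ and 0.605, 0.668 and 0.508 RPM in Δ/D329A, with a log2 difference of -0.37 (SE 0.28, adjusted p = 0.731 in limma) and values below input in both genotypes. Pmel was the promoter without overlap for H3K36me3, at 0.109, 0.0474 and 0.105 RPM in +/+ and 0.122, 0.369 and 0.315 RPM in Δ/D329A (0.92, SE 0.39, adjusted p = 0.565 in limma, and 0.38 with 0.5 RPM added), which is a few reads per tile and below input. At Mitf the H3K4me3 signal was 20.6, 17.8 and 19.8 RPM in +/+ and 14.5, 21.7 and 17.5 RPM in Δ/D329A, a difference of -0.14 (SE 0.20). Its sign turned with the setting, to 0.33 as ratio to input, 0.04 with equal library medians and 0.01 without Δ/D329A replicate 1. The input at Mitf was 0.816, 0.811 and 0.921 RPM in +/+ and 0.629, 0.605 and 0.530 RPM in Δ/D329A, lower in all Δ/D329A animals. Over the 8 members the median difference was -0.08 for H3K4me3, 0.09 for H3K27me3 and 0.32 for H3K36me3, beside -0.07, -0.03 and 0.12 over all promoters.

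**Figure D3:**
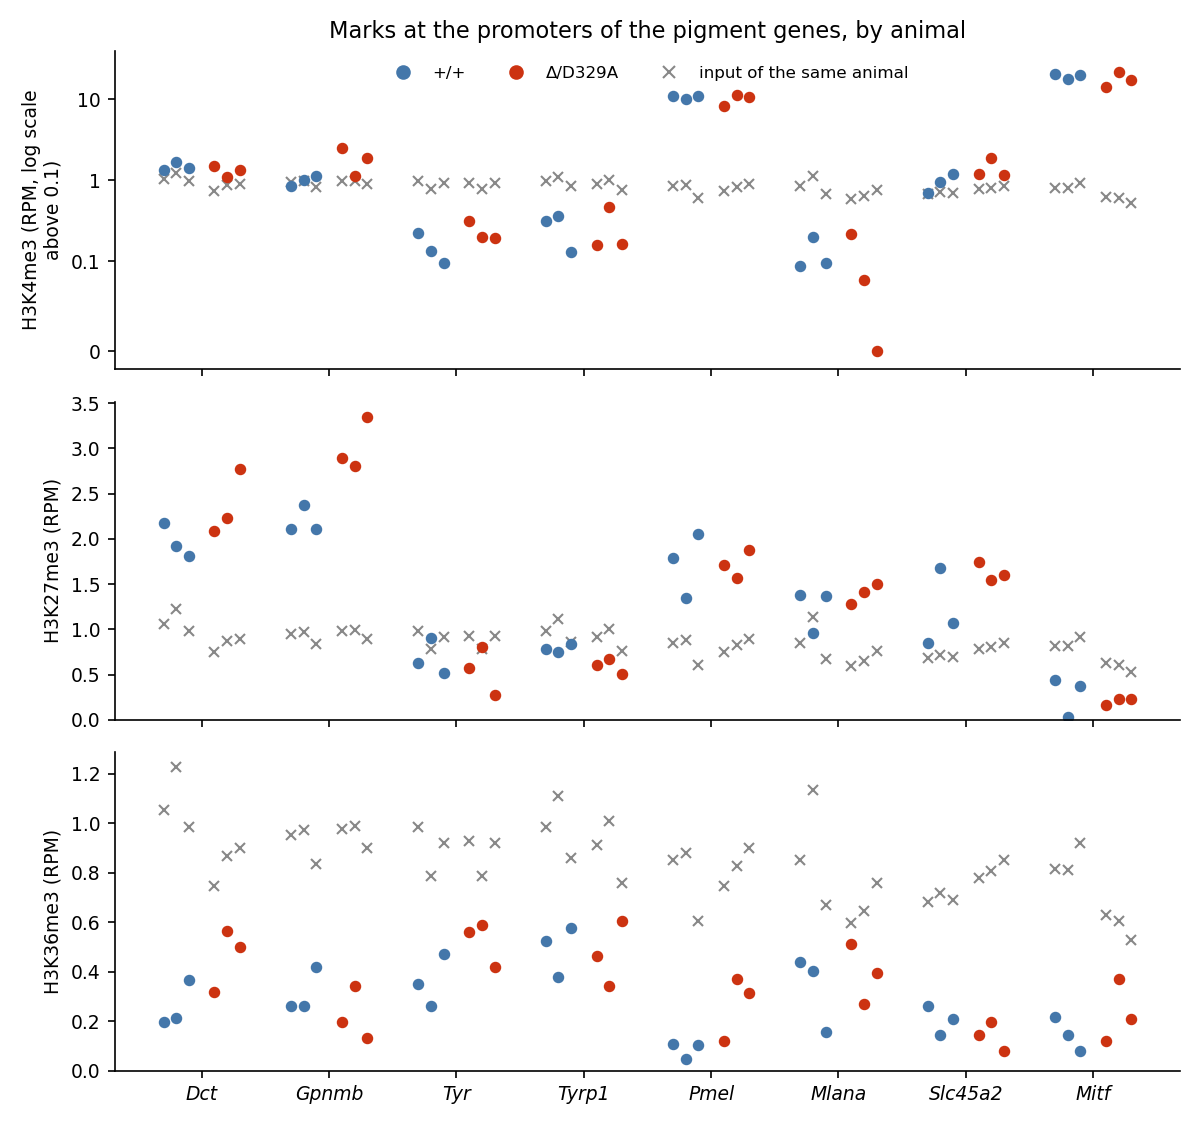
RPM of H3K4me3 (log scale above 0.1), H3K27me3 and H3K36me3 (linear) at the promoters of the 8 genes, with 1 point per animal in blue for +/+ and red for Δ/D329A, and the input of the same animals as grey crosses. H3K4me3 stands above input at Mitf (14.5 to 21.7 RPM) and Pmel and below it at Tyr, Tyrp1 and Mlana. H3K27me3 is highest at Gpnmb (2.11 to 3.35 RPM) and Dct, and H3K36me3 is below input throughout.

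The tiles on either side of the start showed where the signal lay. These tiles were chosen after their values had been seen and carry no test. At the tile centred 1245 bp after the Dct start, H3K4me3 was 0.316, 0.266 and 0.131 RPM in +/+ and 1.63, 0.394 and 1.23 RPM in Δ/D329A, without overlap although replicate 2 of Δ/D329A came close to +/+. At the tile centred 1482 bp after the Gpnmb start it was 0.253, 0.20 and 0.460 RPM in +/+ and 2.51, 0 and 2.90 RPM in Δ/D329A. At both of these tiles the same Δ/D329A animals, replicates 1 and 3, were well above the +/+ animals, and replicate 2 was near or below them. Further into Gpnmb, at 2482 bp, all animals of both genotypes carried H3K4me3 and the genotypes overlapped. The values there were 2.34, 2.66 and 2.76 RPM in +/+ and 3.07, 2.68 and 3.68 RPM in Δ/D329A. Replicate 1 had the highest H3K4me3 background (median of 5 reads per tile) and replicate 2 the lowest (1), with 2 in replicate 3. Replicate 1 was also raised before the start, at 0.878 RPM at -1517 bp of Gpnmb against 0.063 to 0.333 RPM in +/+. The part of background in this order was not tested. At 1245 bp of Dct and 1482 bp of Gpnmb, mean H3K4me3 in the +/+ animals was below input.

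H3K27me3 formed a dome over the start of Gpnmb, with its highest tile at -517 bp from the start, at 2.51 RPM in +/+ and 3.19 RPM in Δ/D329A (means of 3 animals). In that tile the animals were at 2.45, 2.58 and 2.48 RPM in +/+ and 3.16, 3.06 and 3.35 RPM in Δ/D329A, without overlap. At the tiles centred 2482 and 3482 bp after the start, where H3K4me3 reached its highest values near Gpnmb, H3K27me3 was at 0.543 to 0.820 RPM in the means of both genotypes. Around Dct H3K27me3 was broad, with means of 1.65 to 2.96 RPM in +/+ and 2.16 to 2.45 RPM in Δ/D329A from 245 to 5245 bp after the start.

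**Figure D4:**
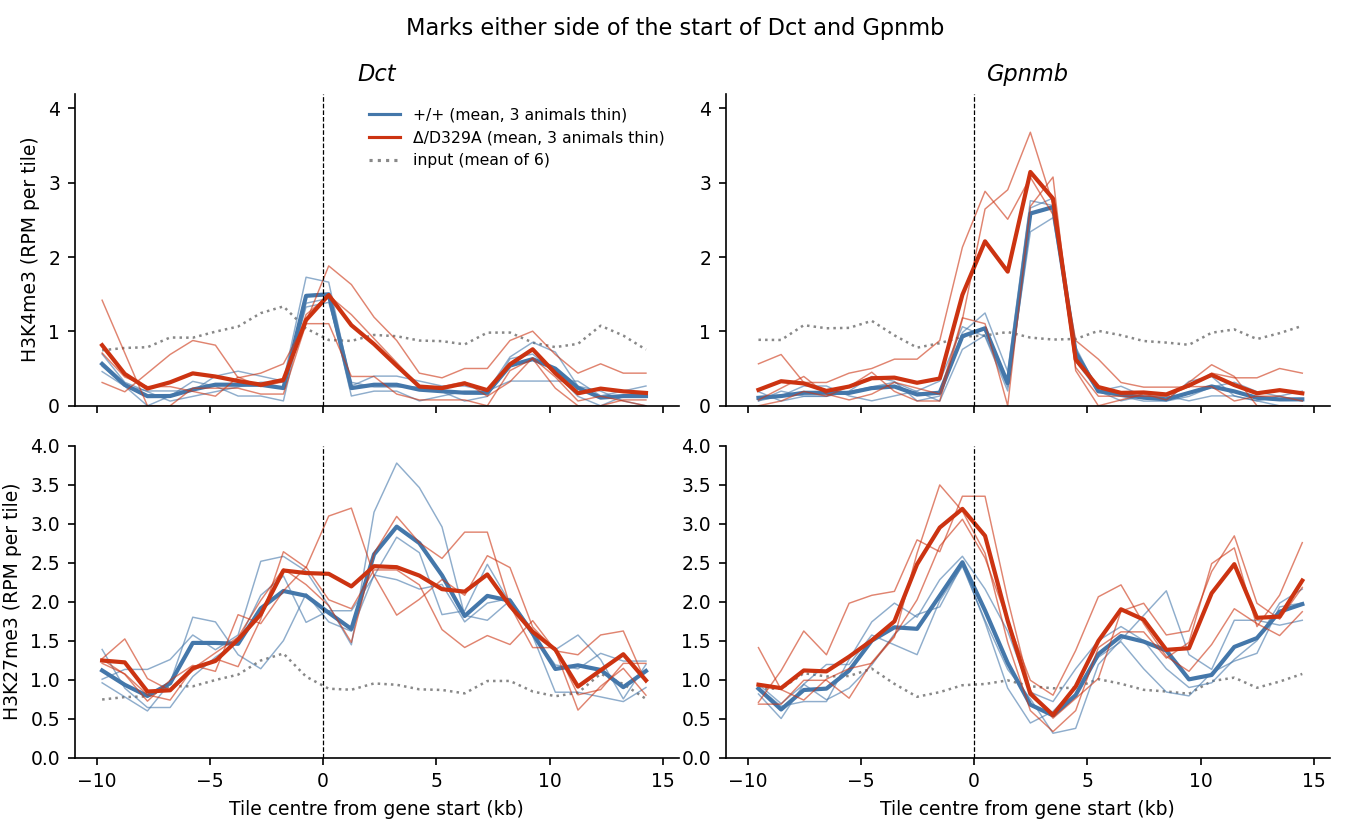
H3K4me3 and H3K27me3 in tiles of the ChIP-seq table (RPM) by distance of the tile centre from the start of Dct and Gpnmb in kb, positive into the gene, with thick lines for the mean of 3 animals, thin lines for each animal and a dotted line for input. At 1245 bp past the Dct start and 1482 bp past that of Gpnmb, H3K4me3 stands well above +/+ in 2 of 3 Δ/D329A animals. These include the library of high background. At 2482 and 3482 bp into Gpnmb all animals of both genotypes carry H3K4me3, at 2.34 to 3.68 RPM. H3K27me3 at the Gpnmb start is at 3.19 RPM in Δ/D329A against 2.51 RPM in +/+.

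Over gene bodies, taken from 1000 bp after the start to the end of the gene, 0 of the 8 members were called for any mark in limma. The fits called 0.0049% of 20392 genes for H3K4me3, 0% for H3K27me3 (2802 genes at an unadjusted p under 0.05) and 0% for H3K36me3 (3568 genes). Of the members 1, 1 and 0 had an unadjusted p under 0.05, beside 3.5%, 13.7% and 17.5% of all genes. Gpnmb was the member whose genotypes did not overlap for H3K4me3 (6.8% of all genes), at 0.488, 0.453 and 0.504 RPM in +/+ and 0.779, 0.548 and 0.71 RPM in Δ/D329A (0.41, SE 0.17, adjusted p = 1 in limma). It was also the one without overlap for H3K27me3 (20.7% of all genes), at 1.23, 1.34 and 1.11 RPM in +/+ and 1.44, 1.44 and 1.52 RPM in Δ/D329A (0.25, SE 0.09, adjusted p = 0.334 in limma).

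H3K36me3 over gene bodies accompanies transcription, and Dct was the member without overlap for this mark (23.5% of all genes). It was at 0.630, 0.619 and 0.542 RPM in +/+ and 0.694, 0.654 and 0.754 RPM in Δ/D329A, a log2 difference of 0.20 (SE 0.09, adjusted p = 0.313 in limma), and remained below input in both genotypes. Gpnmb, with a similar level of transcript in Δ/D329A, differed in H3K36me3 by 0.05 (SE 0.18, adjusted p = 0.912 in limma). Of the members Mitf had the highest H3K36me3 over its body, with means of 0.925 RPM in +/+ and 0.935 RPM in Δ/D329A, and a difference of 0.01 (SE 0.07). Slc45a2, which had 3 reads in each genotype, carried the highest H3K27me3 over its body, at means of 2.18 and 2.21 RPM, above 96.3% and 95.9% of all genes, with a difference of 0.02 (SE 0.09). These last 3 differences were near 0 and turned sign with 1 animal left out, to -0.09 for Gpnmb without Δ/D329A replicate 1, -0.01 for Mitf without Δ/D329A replicate 3 and -0.03 for Slc45a2 without Δ/D329A replicate 2.

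Mitf has 3 annotated starts in RefSeq, and the transcript of melanocytes begins at the most 3' of them. The first, at the start used above, had 30.2, 27.1 and 28.3 RPM of H3K4me3 in +/+ and 21.8, 31.6 and 26.4 RPM in Δ/D329A in its nearest tile. At the second, 122759 bp further on, the values were 3.35, 3.92 and 0.920 RPM in +/+ and 1.32, 1.74 and 1.94 RPM in Δ/D329A. At the third, 184725 bp from the first, they were 0.126, 0.333 and 0.263 RPM in +/+ and 0.314, 0.552 and 0.645 RPM in Δ/D329A and each was below the input of the same animal, whose means were 0.860 and 0.586 RPM. The Mitf reads described above are summed over the exons of all these transcripts and cannot be assigned to a start.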

How the data were processed

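Expression was measured in 9 RNA-seq libraries and histone marks in 24 ChIP-seq libraries of hypothalamus, out of 79 samples of the series. Bisulfite data were not used. To obtain expression values the authors used HISAT2 and the GRCm38 genome, and deposited log2 RPKM per gene made in SeqMonk. For ChIP-seq the authors mapped reads with Bowtie and deposited a signal for each tile of 2000 bp, placed every 1000 bp, which is the coverage scaled to the uniquely mapped total (RPM), without input subtracted. Versions named in the submitters' processing notes are Trim Galore 0.4.3, HISAT2 2.0.5 and Bowtie2 2.3.2. Grouping was by the genotype in the sample labels.

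From these values whole reads were recovered (all 25965 genes within 0.02 reads, all tiles within 0.01 reads), and a value without a read was found to stand for 0.9 reads. The log2 RPKM values were compared by limma 3.58.1 (R 4.3.3, eBayes with trend). Genes needed 0.1 RPKM or more in 4 or more libraries, and calls an adjusted p under 0.01 (Benjamini-Hochberg). Mitochondrial genes were left out. Recovered reads were tested with edgeR 4.0.16 and DESeq2 1.42.0. Marks were averaged over tiles with their centre in a promoter (1500 bp before to 500 bp after the start) or gene body (genes of 3000 bp or more) and tested with limma on log2(RPM + 0.1) at an adjusted p under 0.05, promoters with at least 0.2 RPM of mark or input. A promoter counted as marked if it was also at least 1 above input on the log2 scale, with the animal as block. All tests were two-sided and were tested on simulated data. Intervals of read ratios are exact 95% intervals and, like floors of 3 reads, cover counting error only.

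The members, marker lists and tests were chosen with earlier results of these data known. Named genes are the 8 members, list genes called by a tool or with the largest or smallest difference, other list genes given by their role after values were seen, the nearest genes on either side, and the 5 genes with the highest Pearson r to Dct and to Gpnmb. Promoter sequences are RefSeq's, on GRCm38.p6. Alternatives, of which edgeR on promoter reads was chosen after seeing the data, were median centring, another pseudocount, filter, window, input ratio or tool, a replicate block, a block for sets of animals that differ in mitochondrial coverage of H3K4me3 and H3K27me3, and leaving out each sample. The same sets were used for H3K36me3, although in that mark and in input their mitochondrial coverage overlapped. Python 3.11.15, numpy 2.4.6, pandas 2.3.3 and matplotlib 3.10.9 were used.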

Additional observations from a re-analysis of the deposited data

Results flagged for a closer look

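In 5 of 36 groups of values examined, 1 library stood outside the spread of the others by Dixon's criterion, which chance alone meets in about 1 in 20 groups. Gpnmb was at 1.15 RPKM in Δ/D329A replicate 2, against 2.19 to 2.34 RPKM in the other 3 libraries of that genotype, and that value was above all +/+ libraries. The same library had the lowest summed level of the 10 melanocyte markers, most of it Ednrb, at 14.4 RPKM against 21.3 to 22.5 RPKM, and the fewest reads on genes. Pmel was at 0.281 RPKM in +/+ replicate 3, from 8 reads, against 0.0909 to 0.139 RPKM in the other +/+ libraries. The genes of signals that act on melanocytes summed to 42.9 RPKM in +/+ replicate 1 against 20.1 to 22.99 RPKM, and the chondrocyte genes to 4.81 RPKM in the same library against 2.64 to 3.26 RPKM.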

How the results depend on the processing

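The difference of Dct in expression stayed between 3.65 and 5.14 on the log2 scale and that of Gpnmb between 3.23 and 4.40 over all alternatives in which it was recomputed, both lowest with 0.1 RPKM added. No member was called for a mark between the genotypes under any alternative. Of 854 values of single members under alternatives, 838 counted as unchanged. For expression this meant a shift under 1 SD. For marks it meant the same side of the threshold, with the same sign or a shift of at most 1 SE. A mark shift of any size that kept its sign and side thus counted among the 838. Of the rest, 11 moved, by at least 1 SD for expression or with a turn of sign by more than 1 SE for marks. The other 5 fell under the limit for H3K27me3 over input (Dct at 0.86 with 0.5 RPM added and 0.80 in +/+ animals only, Pmel at 0.77, 0.98 and 0.90). The cause of these changes was not tested. Few reads limit what can be said of Tyr, Tyrp1, Pmel, Mlana and Slc45a2, which have at most 8 in any library.

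Counts of calls over all features depended more on the settings. For expression 19 genes were called (15 of them higher), 34 with median centring (22 higher), 11 with a filter at 0.5 RPKM, 77 with edgeR (40 higher) and 249 with DESeq2 (132 higher), and 11 to 18 with 1 library left out, the fewest without Δ/D329A replicate 4 and 12 without Δ/D329A replicate 1. For H3K4me3 promoters 236 (43 higher) became 83 (25 higher) with median centring, 147 as ratio to input and 507 with the mitochondrial coverage set as block, and 92 to 501 with 1 animal left out. For H3K4me3 gene bodies 1 became 0 with median centring, 2 with the coverage set as block and 0 to 0 with 1 animal left out. For H3K27me3 promoters 252 became 48 as ratio to input and 94 to 463 with 1 animal left out. For H3K36me3 promoters 13 became 2 with median centring, 1 as ratio to input, 2 with a window of 1000 bp either side, and 3 to 14 with 1 animal left out. Promoters with H3K36me3 over input fell from 394 to 206 with 0.5 RPM added.

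With a replicate block the counts were 16 for expression, 224 for H3K4me3, 352 for H3K27me3 and 9 for H3K36me3 promoters, and 0 for H3K4me3 gene bodies. The deviations of samples with the same number had correlations from -0.261 to 0.234, without a common sign. With so few libraries per group this cannot show whether same-numbered samples were paired. The block changed no call of a member.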
